A study of Homo sapiens with 45 samples.

Results

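Keratins are the intermediate filament proteins of epithelial cells, and their genes form one family. The family members described here were the symbols of the count table that consist of KRT, a number and at most a letter from A to C, which leaves out the pseudogenes. Of 57353 symbols in the table, 55 fit that pattern, and 20 of these reached a mean of 1 CPM, the count scaled to the size of the library, in at least 1 of 15 groups of libraries. The other 35 stayed below that level, 4 of them with no count in any library. KRT16 at 1.18 CPM, KRT14 at 1.46 CPM and KRT83 at 1.80 CPM in their highest group were just inside the threshold. Just outside it were KRT3 at 0.615, KRT35 at 0.591, KRT78 at 0.572 and KRT2 at 0.571 CPM.

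The study asked how estrogen changes gene expression in breast cancer cells, with and without 3 proteins linked to estrogen signalling. The invasive lobular carcinoma lines were MDA-MB-134-VI, called MM134, and MDA-MB-330, called MM330, and the invasive ductal line was HCC1428, so a carcinoma type rests on 1 or 2 lines. Cells were kept without hormone for 3 days and transfected with a small interfering RNA, and 24 hours later they received 0.01% ethanol or 100 pM estradiol (E2) for a further 24 hours. In each line the 5 groups were siNT (non-targeting siRNA, ethanol), siNT_E2 (non-targeting siRNA, E2) and the E2-treated knockdowns siER_E2, siFOXA1_E2 and siMDC1_E2, with 3 libraries each and 45 in all. ESR1 encodes the estrogen receptor, FOXA1 is a forkhead factor that opens chromatin for that receptor, and MDC1 is a DNA damage response protein. Whether the 3 replicates of a group were grown separately is not stated in the labels, and p-values here measure only the spread between libraries, which may be technical.

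Keratin filaments assemble from pairs of an acidic type I chain, with genes mostly on chromosome 17, and a basic type II chain, with genes on chromosome 12. KRT8 with KRT18 and KRT19 is the pair of simple epithelia and of the luminal layer of the breast, where KRT7 is a further type II chain. KRT5 and KRT14 mark the basal and myoepithelial layer, KRT6, KRT16 and KRT17 appear in stressed or activated stratified epithelium, and a further set of keratins builds the hair shaft. By lists of these roles, 4 of 5 simple-epithelial keratins were members (KRT7, KRT8, KRT18 and KRT19). Among basal and stress keratins 3 of 8 were members (KRT14, KRT15 and KRT16), and among suprabasal and other epithelial keratins 6 of 16 (KRT4, KRT9, KRT10, KRT13, KRT23 and KRT80). Hair shaft keratins gave 7 of 17 (KRT31, KRT32, KRT33A, KRT37, KRT81, KRT83 and KRT86), and inner root sheath and companion layer keratins gave 0 of 9.

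Upstream sequences in RefSeq (GRCh38.p14) matched 8 of the 20 members, namely KRT4, KRT8, KRT9, KRT10, KRT31, KRT32, KRT33A and KRT37. The 250 bases before the start of 5 of them are shown, picked for the patterns named next. KRT4, KRT8 and KRT32 were matched but are not shown. KRT37, KRT31 and KRT33A are hair shaft genes of 1 cluster with counts that were highest in siNT_E2 in at least 1 line, KRT9 was above 4 counts in a library in 1 group only, and KRT10 was called in 1 of 12 comparisons. All lie on the minus strand of chromosome 17, and each run reads 5′ to 3′ towards the start. Capitals mark GGTCA, which is one arm of the estrogen response element, the forkhead letters TGTTTAC, the AP-1 motif, and TATAAA, the TATA box, searched on both strands. The AP-1 motif was searched as TGA and TCA with any base between them.
KRT37: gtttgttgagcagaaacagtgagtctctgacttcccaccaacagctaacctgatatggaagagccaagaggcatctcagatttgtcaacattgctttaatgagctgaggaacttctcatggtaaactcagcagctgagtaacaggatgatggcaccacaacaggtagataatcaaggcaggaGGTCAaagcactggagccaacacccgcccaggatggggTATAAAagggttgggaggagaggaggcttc
KRT31: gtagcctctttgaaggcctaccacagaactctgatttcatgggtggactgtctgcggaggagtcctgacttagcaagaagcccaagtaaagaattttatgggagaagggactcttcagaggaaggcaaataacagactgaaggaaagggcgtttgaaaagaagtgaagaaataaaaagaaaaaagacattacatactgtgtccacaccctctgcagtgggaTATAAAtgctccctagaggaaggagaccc
KRT33A: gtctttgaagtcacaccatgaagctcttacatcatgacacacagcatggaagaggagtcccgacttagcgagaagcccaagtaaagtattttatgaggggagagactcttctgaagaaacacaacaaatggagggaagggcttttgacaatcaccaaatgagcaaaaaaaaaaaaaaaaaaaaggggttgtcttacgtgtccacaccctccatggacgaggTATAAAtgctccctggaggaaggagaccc
KRT9: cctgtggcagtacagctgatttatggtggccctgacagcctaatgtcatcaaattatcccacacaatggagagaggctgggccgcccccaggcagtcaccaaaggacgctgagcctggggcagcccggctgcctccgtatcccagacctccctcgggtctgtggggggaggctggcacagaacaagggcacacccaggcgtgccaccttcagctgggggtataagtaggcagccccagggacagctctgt
KRT10: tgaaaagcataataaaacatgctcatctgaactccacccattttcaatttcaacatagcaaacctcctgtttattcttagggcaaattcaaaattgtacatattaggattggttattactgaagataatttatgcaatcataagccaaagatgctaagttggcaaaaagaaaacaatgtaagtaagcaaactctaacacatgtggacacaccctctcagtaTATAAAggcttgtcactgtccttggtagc

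The KRT37 window is chr17:41424586-41424835, that of KRT31 chr17:41397609-41397858 and that of KRT33A chr17:41350829-41351078. The KRT9 window is chr17:41572060-41572309 and the KRT10 window chr17:40822615-40822864. KRT37 held GGTCA at -68 and TATAAA at -30, counted from the start, and KRT31, KRT33A and KRT10 each held TATAAA at -29. KRT9 held none of these letters. Of the matched members not shown, KRT8 held GGTCA at -235, KRT32 held it at -217, and KRT4 held none of these letters. KRT31 and KRT33A were identical at 34 of the last 50 bases when set side by side without gaps, against 23 of 50 for KRT31 and KRT37. Of 35116 RefSeq windows of this length, 32.6% held the single estrogen response arm, 10.7% the TATA box, 6.57% the AP-1 letters, 2.98% the forkhead letters and 0.0399% the full estrogen response element, both arms facing each other 3 bases apart, which none of the 8 matched members held. The KRT8 window, chr12:52926470-52926719, lay inside that gene, away from the first base of its principal transcript at 52949874. The KRT4 window, chr12:52814117-52814366, also lay inside its gene, whose principal transcript has its first base at 52814551. The letters of the KRT8 and KRT4 windows are therefore not those of these starts. The KRT32 window, chr17:41467387-41467636, ran past the first base of its principal transcript at 41467429.

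Library totals lay between 21.04 and 36.7 M counts. Each siRNA lowered its target. Mean ESR1 in HCC1428 was 427 CPM in siNT_E2 and 212 with siER, while it was 546 and 61.4 in MM134, and 281 and 21.9 in MM330, so the knockdown left more ESR1 RNA in HCC1428. FOXA1 was at 448, 495 and 279.6 CPM in siNT_E2 of MM134, MM330 and HCC1428 and at 114, 133 and 92.1 with its siRNA, and MDC1 was at 178, 199 and 173 CPM and at 40.7, 41.1 and 46.2. ESR1 was also low after the other knockdowns in MM134, at 112 CPM with siFOXA1 and 123 CPM with siMDC1, and in MM330 at 200.2 and 146 CPM. MDC1 was lower than in siNT_E2 with siER, at 112, 101 and 76.7 CPM in MM134, MM330 and HCC1428. With siFOXA1 it was at 139, 119 and 96.0 CPM. Without hormone, HCC1428 had MDC1 at 64.7 CPM and FOXA1 at 462 CPM. The part of these shifts in the keratin changes was not tested. All 8 luminal markers that are not keratins were at or above 1 CPM in each line. Of 8 fibroblast markers only COL1A1 reached 1 CPM, of 7 immune markers none did, and of 6 endothelial markers VWF did in MM330 and HCC1428. In such bulk libraries, fewer cells with a transcript and less of it per cell cannot be told apart. In 11 libraries, spread over 9 groups, reads at KRT8 pseudogenes made up 3.31% to 5.01% of those at KRT8 and its pseudogenes, against 0.917% to 1.59% in the other 34. KRT8 and KRT18 share 525 exon bases on opposite strands, KRT7 shares 282 with KRT7-AS, KRT13 476 and KRT37 575 with antisense genes, and the strand setting of the counting was not given, so reads of these stretches cannot be assigned with certainty. KRT81 and KRT86 are near-identical copies, with 29.7% and 25.8% of their 100-base windows found in another gene, and their values are uncertain for that reason.

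Simple-epithelial keratins made up nearly all keratin RNA in these cells. KRT8, KRT18, KRT19 and KRT7 together held 96.3% of all keratin CPM in the library with the lowest share and 98.9% in the one with the highest. Without hormone the keratin sum was 5249 ± 180.1 CPM (SD, n = 3) in MM134, 7726 ± 408 in MM330 and 8099 ± 287 in HCC1428. With E2 it was 9509 ± 59.7, 8423 ± 425 and 12433 ± 480.3 CPM. With siFOXA1 it was 14706 ± 516, 17878 ± 1777 and 14894 ± 295 CPM, so the range of siFOXA1_E2 libraries lay above that of every other group of the same line. The sums with siER were 5556 ± 158, 6306 ± 279 and 7417 ± 322 CPM, and those with siMDC1 7769 ± 94.5, 6805 ± 214 and 11690 ± 32.2 CPM.

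**Figure D1:**
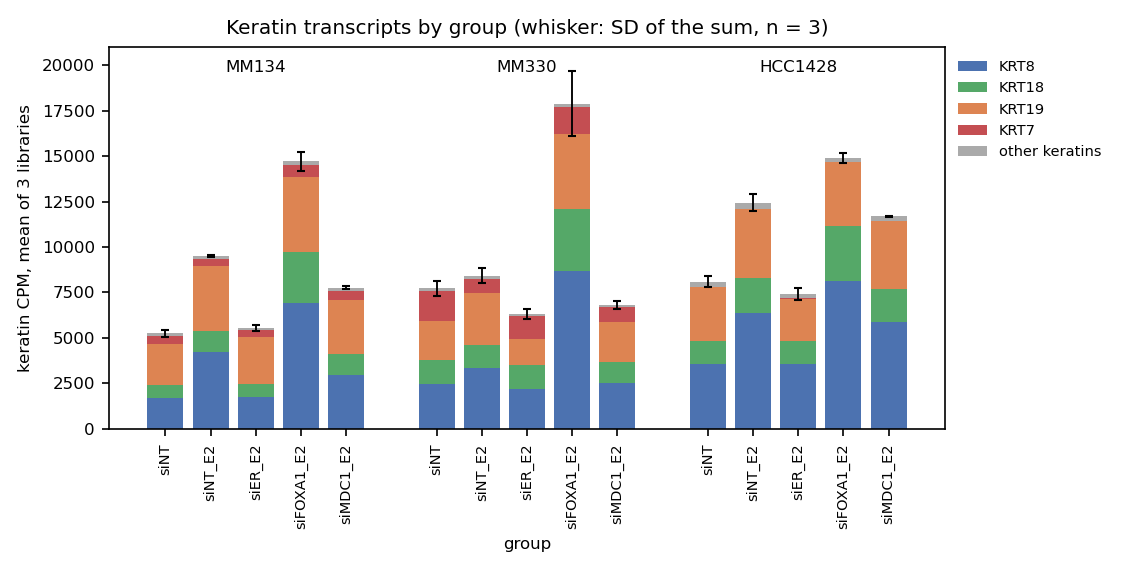
Keratin CPM by group, as the stacked mean of 3 libraries for KRT8, KRT18, KRT19, KRT7 and all other keratins, with the SD of the sum as whisker. The siFOXA1_E2 bar is the tallest in each line, at 14706, 17878 and 14894 CPM, and the KRT7 segment is visible in MM134 and MM330 but not in HCC1428.

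On GRCh38, the type II genes KRT8 (chr12:52897187-52949954, minus strand) and KRT7 (chr12:52232520-52252186, plus strand) share chromosome 12 with the type I gene KRT18 (chr12:52948871-52952901, plus strand), while KRT19 (chr17:41523617-41528308, minus strand) and KRT13 (chr17:41500981-41505705, minus strand) lie in the type I cluster of chromosome 17. Per kilobase of the principal transcript, KRT19 was the most abundant keratin in siNT libraries of each line, at 1627 ± 69.8 CPM per kb in MM134, 1531 ± 123 in MM330 and 2138 ± 90.1 in HCC1428. KRT8 followed at 696 ± 24.4, 1010 ± 55.4 and 1461 ± 55.3 CPM per kb. KRT18 was at 429 ± 14.4, 777 ± 26.6 and 745 ± 25.8 CPM per kb. With merged exons as the length, KRT19 stayed first in each line, and KRT8 came next in MM134 and HCC1428 but at rank 4 in MM330. KRT7 was where the lines differed most among these 4. Its siNT libraries lay between 401 and 416 CPM in MM134, between 1597 and 1734 CPM in MM330 and between 16.1 and 18.6 CPM in HCC1428. None of these ranges overlapped, and the log2 difference from HCC1428 was 4.48 ± 0.05 (SE) for MM134 and 6.56 ± 0.05 for MM330 (edgeR quasi-likelihood test with Benjamini-Hochberg adjustment, adjusted p = 1.1e-43 and 2.2e-48).

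The keratins of the basal layer were nearly absent apart from KRT15, a type I chain of basal keratinocytes. KRT5, the partner of KRT14 in basal cells, did not exceed a mean of 0.0372 CPM in any group, and KRT17 did not exceed 0.1001 CPM. KRT15 in siNT libraries was at 23.4 ± 1.80 CPM in HCC1428, 9.93 ± 1.98 in MM330 and 5.45 ± 0.65 in MM134. KRT14 had no count in siNT libraries of MM134 and MM330 and 11, 14 and 21 counts in those of HCC1428. The 8 markers of myoepithelial cells that are not keratins summed to 12.7 to 13.8 CPM in siNT libraries of MM134, 3.28 to 4.19 in MM330 and 114 to 126 in HCC1428. TP63, which marks basal cells, was at 1.60 ± 0.34 CPM in HCC1428, and LAMA3 (70.8 CPM) and NGFR (46.2 CPM) made up most of that sum.

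Among the other epithelial keratins, KRT80, a type II chain of differentiating epithelium, had 212 ± 13.7 CPM in the siNT libraries of HCC1428, 113 ± 0.59 in those of MM134 and 53.5 ± 1.66 in those of MM330. KRT10, a chain of suprabasal epidermis, was at 27.6 ± 0.61, 39.7 ± 3.63 and 16.0 ± 1.21 CPM in MM134, MM330 and HCC1428. KRT4, a type II chain of the oesophagus and other wet surfaces, was at 27.3 ± 1.42 CPM in MM330 and 6.90 ± 0.70 CPM in HCC1428, with no count in the siNT libraries of MM134. KRT13, the partner of KRT4, was at 3.99 ± 0.64 CPM in HCC1428 and under 0.25 CPM in every siNT library of the other 2 lines. KRT23 had its highest siNT level in MM134, at 3.495 ± 0.69 CPM. Hair shaft members were low in each line. Without hormone KRT86 was at 14.1 ± 0.93 CPM in HCC1428, against 1.26 ± 0.13 in MM134 and 0.240 ± 0.093 in MM330. KRT31 was highest in MM330 at 1.79 ± 0.095 CPM, and KRT32 in HCC1428 at 1.83 ± 0.28 CPM.

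Tested over the 20 members, siNT levels of MM134 were higher than those of HCC1428 for 4 keratins and lower for 14, against 35.7% and 39.9% of all genes (75.6% in either direction). For MM330 against HCC1428 the counts were 5 higher and 11 lower, against 35.2% and 37.7% of all genes (73% together). For MM134 against MM330 they were 4 higher and 9 lower, against 35.5% and 36.9% of all genes (72.4% together). Each of these comparisons is one of single cell lines. In MM330 against HCC1428, KRT33A lost its call with a block for the replicate number (adjusted p = 0.20), KRT37 with that block (adjusted p = 0.085) and with only libraries of lower pseudogene share (adjusted p = 0.053). KRT23 lost its call without MM330 siNT replicate 1 or HCC1428 siNT replicate 3 (adjusted p of 0.076 and 0.082).

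E2 raised KRT8, KRT19, KRT13 and KRT15 in all 3 lines and lowered KRT7 in all 3, among 14 members tested in each. The share of all genes called alike in all 3 lines was not computed, for E2 or for the knockdowns below. Of the members tested, 10 rose and 3 fell in MM134 (17 tested), 8 rose and 2 fell in MM330 (16 tested), and 9 rose and 5 fell in HCC1428 (18 tested). Of all genes, 27.2% rose and 27.2% fell in MM134 (54.4% together), 13.7% and 12.6% in MM330 (26.3%), and 29.1% and 25.7% in HCC1428 (54.8%). The median log2 change of the tested members was 0.91 in MM134, 0.40 in MM330 and 0.45 in HCC1428, against -0.03, -0.00 and -0.03 over all genes. In MM134 it was 0.68 without KRT9 and KRT14, which had no count in siNT. Some members reached the filter on low counts only through 1 group and so had to differ there. These were KRT9, KRT14 and KRT16 in MM134 and KRT32 and KRT86 in MM330, through siFOXA1_E2, and KRT33A and KRT37 in MM134, through siNT_E2. Comparisons with that group are given for them as counts, with no test. In HCC1428, KRT23 passed only with siNT_E2, siER_E2 and siMDC1_E2 libraries counted together. Without it 9 members rose and 5 fell after E2 there, of 17 tested, with a median of 0.33. Without KRT33A and KRT37, 8 members rose and 3 fell after E2 in MM134, of 15 tested, and their median log2 change was 0.68.

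KRT8 had 1747, 1707 and 1630 CPM in the siNT libraries of MM134 and 4188, 4246 and 4216 CPM with E2, with no overlap. Its log2 change was 1.28 ± 0.03 (SE, adjusted p = 1.3e-19). In HCC1428 the siNT libraries held 3689, 3420 and 3573 CPM and the E2 libraries 6001, 6523 and 6552 CPM, a change of 0.81 ± 0.04. In MM330 the ranges were closer but still apart, at 2543, 2306 and 2535 against 3126, 3481 and 3460 CPM, a change of 0.46 ± 0.05. KRT18, the usual partner of KRT8, rose by 0.68 ± 0.03 in MM134 and 0.57 ± 0.03 in HCC1428. In MM330 its siNT libraries (1346, 1265 and 1340 CPM) and E2 libraries (1203, 1312 and 1304 CPM) overlapped, with a log2 change of -0.04 ± 0.05 (adjusted p = 0.67). KRT19 rose by 0.63 ± 0.03 in MM134, 0.42 ± 0.04 in MM330 and 0.33 ± 0.03 in HCC1428.

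KRT7 went the other way. In MM330 it fell from 1734, 1597 and 1719 CPM to 765, 799 and 833 CPM, a log2 change of -1.07 ± 0.04 (adjusted p = 2.6e-12). It fell by 0.93 ± 0.07 in HCC1428, from 17.6 to 9.46 CPM on average, and by 0.21 ± 0.03 in MM134, from 410.5 to 363 CPM. The ratio of type II to type I chains, summed over the members in CPM per kb, differed in direction between lines. It was 0.464 ± 0.006 (SD) in siNT and 0.600 ± 0.004 with E2 in MM134, and 0.529 ± 0.013 and 0.675 ± 0.015 in HCC1428. In MM330 it was 0.857 ± 0.028 in siNT and 0.657 ± 0.011 with E2. The 3 libraries of each group did not overlap between siNT and siNT_E2 in any line. These are ratios of RNA by the chosen transcript lengths, not of protein.

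**Figure D2:**
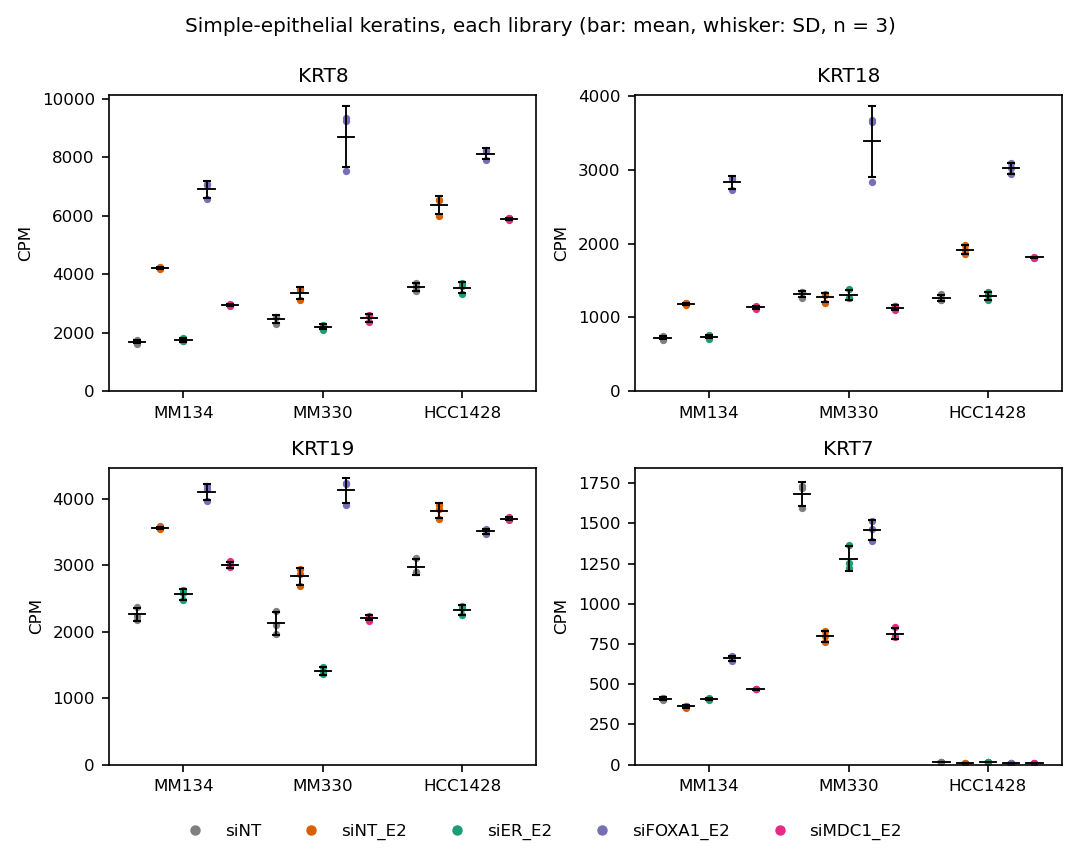
CPM of KRT8, KRT18, KRT19 and KRT7 in each library by line, with the mean as bar and the SD as whisker (n = 3). KRT8 in siFOXA1_E2 reaches 6902, 8702 and 8120 CPM on average, and KRT7 in HCC1428 lies near the axis at 9.46 to 17.6 CPM.

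KRT13, a type I chain of wet stratified epithelium, had the largest called E2 change in MM330 and HCC1428. In HCC1428 it was at 4.43, 4.28 and 3.25 CPM without hormone and at 77.6, 75.7 and 79.7 CPM with E2, a 19.0-fold rise (log2 4.25 ± 0.09, adjusted p = 9.4e-18). In MM330 the siNT libraries held 0, 9 and 1 counts and the E2 libraries 59, 89 and 75, a log2 change of 4.48 ± 0.48. In MM134 counts were lower still, 0, 1 and 3 against 21, 12 and 4 (log2 3.04 ± 0.81, adjusted p = 0.0030). KRT15 rose by 1.47 ± 0.11 in MM330 (from 9.93 to 27.2 CPM), by 0.91 ± 0.11 in MM134 (from 5.45 to 10.4) and by 0.22 ± 0.06 in HCC1428 (from 23.4 to 27.8). The sum of the 8 myoepithelial markers was also higher with E2. It lay at 15.4 to 15.6 CPM in MM330, 17.9 to 20.7 in MM134 and 163 to 184 in HCC1428. Within it, LAMA3 went from 1.23 to 13.3 CPM in MM330, from 4.85 to 10.1 in MM134 and from 70.8 to 109 in HCC1428. TP63 went the other way in MM134, from 1.68 to 0.754 CPM. In MM330 it was at 0.522 and 0.573 CPM and in HCC1428 at 1.60 and 1.77, so the sum does not show a joint rise. The part of these markers in the result was not tested. The HCC1428 change of KRT15 lost its call without siNT_E2 replicate 3 (adjusted p = 0.059). KRT4 fell by 1.24 ± 0.19 in MM330, from 28.3, 25.6 and 27.8 to 10.4, 11.7 and 12.3 CPM, and by 1.14 ± 0.17 in HCC1428, from 6.90 to 3.20 CPM on average. So KRT13 and KRT4, which pair with each other in wet stratified epithelium, changed in opposite directions in both lines where both were tested. KRT23 rose in MM330 from 16, 11 and 10 to 30, 33 and 19 counts (log2 1.14 ± 0.38, adjusted p = 0.036), but not without siNT replicate 2 or 3 or siNT_E2 replicate 1 or 2 (adjusted p of 0.095 to 0.15). KRT80 rose by 0.13 ± 0.03 in MM134 and 0.37 ± 0.07 in MM330 and fell by 0.28 ± 0.04 in HCC1428.

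Among hair shaft keratins, calls after E2 were made for KRT31, KRT32, KRT37, KRT81, KRT83 and KRT86. The libraries of KRT37, a type I chain, went from 1.70, 1.84 and 1.29 to 4.83, 5.67 and 4.68 CPM in HCC1428 (log2 1.61 ± 0.18), and its mean from 0.619 to 2.498 CPM in MM330 (2.02 ± 0.37). In MM134 it had 3, 7 and 6 counts in siNT and 35, 23 and 29 with E2. KRT32 rose by 1.81 ± 0.17 in HCC1428, from 1.57, 1.80 and 2.13 to 5.93, 6.89 and 6.95 CPM, and by 2.52 ± 0.70 in MM134, from 0, 6 and 1 to 15, 15 and 11 counts. KRT31 rose by 1.85 ± 0.22 in MM330, from 1.90, 1.75 and 1.73 to 5.79, 7.68 and 5.81 CPM. Its rise in HCC1428 (1.23 ± 0.43, adjusted p = 0.019) was not called without siNT replicate 1 or 3 or siNT_E2 replicate 3 or 4 (adjusted p of 0.057 to 0.090). KRT33A had 1, 7 and 3 counts in siNT of MM134 and 18, 18 and 12 with E2. KRT86 fell by 1.77 ± 0.10 in HCC1428, from 14.7, 14.7 and 13.1 to 4.12, 4.23 and 4.38 CPM, and by 1.06 ± 0.27 in MM134, from 1.26 to 0.622 CPM. KRT81, its near copy, fell by 1.14 ± 0.20 in MM134, from 2.92 to 1.36 CPM, and in HCC1428 it was called at an adjusted p of 0.049 that did not hold without siNT replicate 2 or 3 or any 1 siNT_E2 library (adjusted p of 0.075 to 0.21). The type II gene KRT83 was called in HCC1428 with a log2 change of 0.71 ± 0.28, which was lost without siNT replicate 3 or siNT_E2 replicate 2 or 4 (adjusted p of 0.059 to 0.16). KRT16 had 1 count in all siNT libraries of MM134 and 7, 7 and 1 with E2 (adjusted p = 0.0098), not called without siNT replicate 2 (adjusted p = 0.053).

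**Figure D3:**
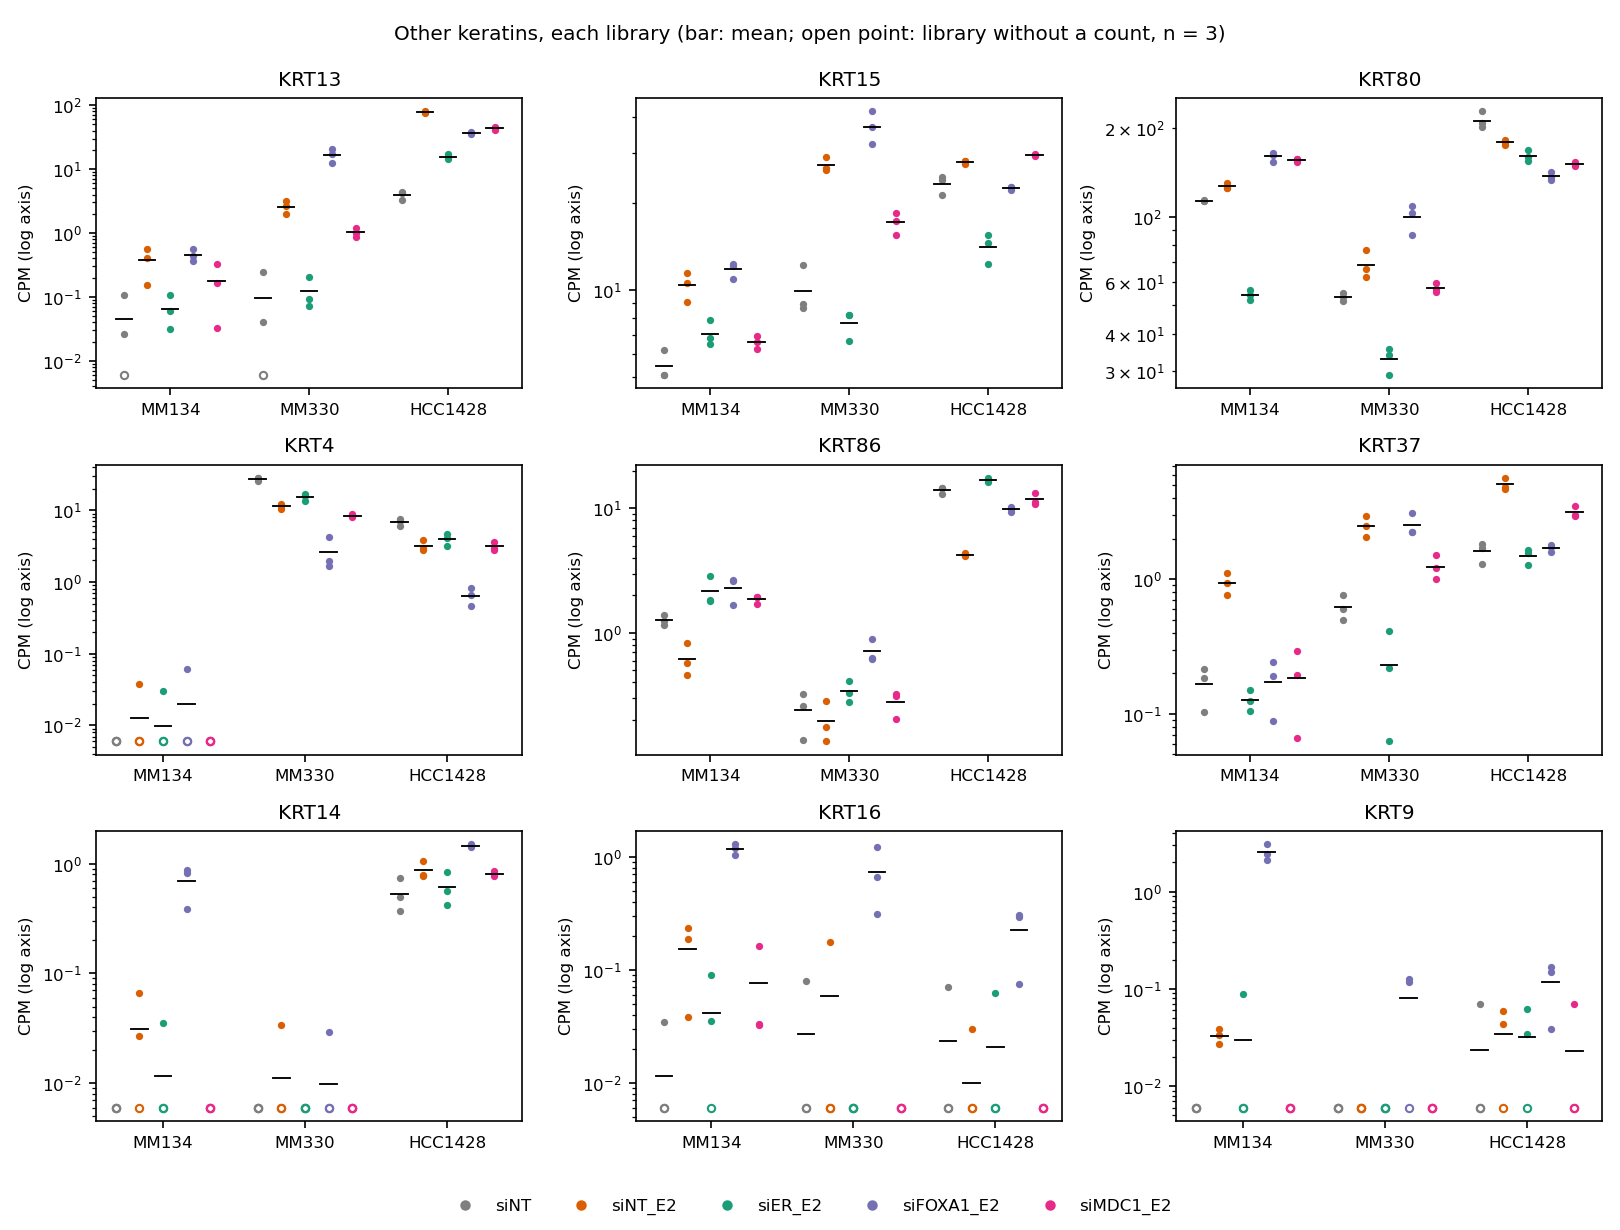
CPM of 9 other keratins in each library by line on log axes, with the mean of 3 libraries as bar and libraries without a count as open points at the bottom. KRT13 in HCC1428 goes from 3.99 to 77.7 CPM with E2, and KRT9 in MM134 reaches 2.54 CPM in siFOXA1_E2.

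Knockdown of the estrogen receptor in E2-treated cells lowered KRT8, KRT13, KRT15, KRT19 and KRT80 in all 3 lines and raised KRT7 in all 3. This comparison and the other knockdown comparisons share the siNT_E2 libraries with the E2 comparison, so opposite changes are not independent and the values stand side by side only. In MM134 3 members rose and 10 fell (3 and 8 without KRT33A and KRT37), against 29.3% and 27.9% of all genes (57.2% together). In MM330 1 rose and 8 fell, against 15.1% and 17.4% (32.5%), and in HCC1428 2 rose and 9 fell, against 22.5% and 28.7% (51.2%). The median log2 change of the members tested was -0.73 in MM134, -0.73 in MM330 and -0.48 in HCC1428, against 0.04, 0.00 and -0.00 over all genes. In MM134 this median was -0.65 without KRT33A and KRT37.

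KRT8 with siER was at 1818, 1714 and 1703 CPM in MM134, at 2239, 2276 and 2110.5 in MM330 and at 3687, 3337 and 3591 in HCC1428. These ranges overlapped those of siNT in MM134 and HCC1428 and lay below them in MM330. The log2 changes against siNT_E2 were -1.24 ± 0.03, -0.60 ± 0.05 and -0.84 ± 0.04. KRT18 fell by 0.65 ± 0.03 in MM134 and 0.56 ± 0.03 in HCC1428, and in MM330 its change was 0.04 ± 0.05 (adjusted p = 0.69). KRT19 fell by 0.45 ± 0.03 in MM134, 1.00 ± 0.04 in MM330 and 0.71 ± 0.04 in HCC1428. In MM330 it was at 1400, 1477 and 1365 CPM, below the siNT libraries of 2104, 1970 and 2308 CPM. In HCC1428 it was also below siNT, at 2246 to 2385 against 2898 to 3117 CPM. In MM134 it was above siNT, at 2477 to 2627 against 2181 to 2369 CPM. KRT7 rose by 0.20 ± 0.03, 0.68 ± 0.04 and 0.74 ± 0.07 in MM134, MM330 and HCC1428.

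KRT80 with siER also lay below its level in cells without hormone in all 3 lines. In MM134 it was at 56.3, 52.1 and 54.2 CPM with siER, against 114, 113 and 113 in siNT and 125, 130 and 126 with E2 (log2 -1.19 ± 0.03, adjusted p = 9.5e-18). In MM330 it was at 35.5, 34.1 and 29.1 CPM, against 55.2, 51.9 and 53.5 in siNT (log2 -1.06 ± 0.08 from siNT_E2). In HCC1428 it was at 168, 155 and 159.9 CPM, against 207, 201 and 227 in siNT, and the change from siNT_E2 was -0.15 ± 0.04, not called without siNT_E2 replicate 3 (adjusted p = 0.063). KRT13 fell by 4.33 ± 0.47 in MM330 to 2, 6 and 3 counts, and by 2.31 ± 0.07 in HCC1428 to 15.4, 14.3 and 17.01 CPM, which is above its siNT range. In MM134 it fell by 2.49 ± 0.75 to 1, 3 and 2 counts, not called without siNT_E2 replicate 1 (adjusted p = 0.067). KRT15 fell by 0.53 ± 0.11 in MM134, 1.82 ± 0.12 in MM330 and 0.98 ± 0.07 in HCC1428, and KRT23 by 0.73 ± 0.18 in MM134 and 1.63 ± 0.40 in MM330.

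Of the hair shaft keratins, KRT37 fell by 3.43 ± 0.41 in MM330 and 1.74 ± 0.18 in HCC1428, and had 4, 3 and 5 counts with siER in MM134. KRT31 fell by 2.36 ± 0.22 in MM330 and 1.57 ± 0.43 in HCC1428, and KRT32 by 2.92 ± 0.74 in MM134 and 1.14 ± 0.16 in HCC1428. KRT33A had 3, 1 and 2 counts with siER in MM134. KRT86 rose by 1.83 ± 0.26 in MM134, to 1.85, 2.85 and 1.79 CPM, and by 2.00 ± 0.09 in HCC1428, to 16.99, 17.6 and 16.2 CPM. KRT81 rose by 1.13 ± 0.20 in MM134.

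**Figure D4:**
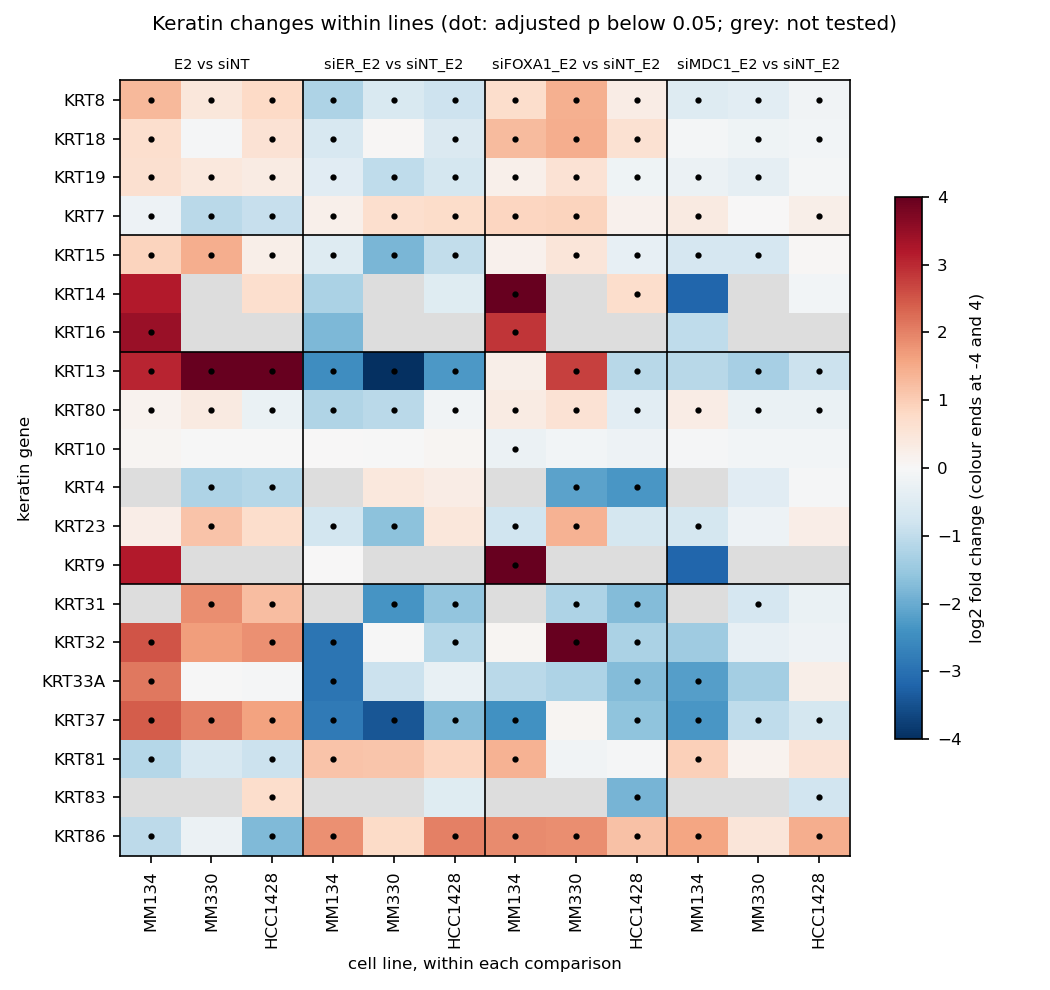
Log2 change of each member in the 12 comparisons within lines, by edgeR, with a dot where the adjusted p was below 0.05 and grey where a member was not tested. KRT8 and KRT80 carry a dot in 12 of 12 comparisons and KRT10 in 1, and fitted changes of KRT9 and KRT14 in MM134 rest on libraries with 0 to 3 counts outside siFOXA1_E2. Dots include members that passed the filter only through 1 group.

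Knockdown of FOXA1 raised KRT8 and KRT18 in all 3 lines. Changes of KRT13, KRT15, KRT19, KRT23 and KRT80 were called in opposite directions in different lines. In MM134 10 members rose and 3 fell, against 27.9% and 28.5% of all genes (56.3% together). In MM330 10 rose and 2 fell, against 24.4% and 24.6% (49%), and in HCC1428 4 rose and 10 fell, against 24.1% and 29.5% (53.6%). Without the members that passed the filter only through a compared group, 7 rose and 2 fell of 12 in MM134, and 8 rose and 2 fell of 14 in MM330. The median log2 change of the tested members was 0.34, 0.57 and -0.38, against 0.01, -0.01 and -0.03 over all genes. Without the members that passed only through a compared group, the median was 0.29 in MM134 and 0.52 in MM330. In HCC1428 it was -0.34 without KRT23.

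KRT18 rose most in the lobular lines. It went from 1192, 1199 and 1173 CPM in siNT_E2 to 2725, 2879 and 2888 in MM134 (log2 1.26 ± 0.03, adjusted p = 3.3e-19). In MM330 it went from 1203, 1312 and 1304 to 2836, 3652 and 3669 (1.44 ± 0.05), with replicate 1 the lowest. In HCC1428 the rise was 0.61 ± 0.03, to 3087, 3027 and 2947 CPM. KRT8 rose by 0.71 ± 0.03 in MM134, to 6578, 7049 and 7080 CPM, by 1.41 ± 0.05 in MM330, to 7513, 9246 and 9348 CPM, and by 0.31 ± 0.04 in HCC1428, to 8235, 8219 and 7908 CPM. KRT19 rose by 0.20 ± 0.03 in MM134 and 0.58 ± 0.04 in MM330 and fell by 0.16 ± 0.03 in HCC1428. KRT7 rose by 0.87 ± 0.03 in MM134 and 0.90 ± 0.04 in MM330, and in HCC1428 its change was 0.17 ± 0.07 (adjusted p = 0.051). With only the libraries of the lower pseudogene share, none of these calls of KRT7, KRT8, KRT18 and KRT19 was lost.

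Single keratins of stratified epithelium reached low counts with siFOXA1, mainly in MM134. KRT9, a keratin of palm and sole skin, had 1 count in each siNT_E2 library of MM134 and 80, 97 and 72 counts with siFOXA1 (2.54 ± 0.49 CPM). KRT14 had 1, 2 and 0 counts in siNT_E2 and 29, 26 and 13 with siFOXA1 there, and no more than 1 count in any library of MM330. KRT16 went from 7, 7 and 1 to 40, 33 and 44 counts. All 3 passed the filter in MM134 through this group, so no test is given. KRT16, with 7, 16 and 42 counts in that group of MM330 and 2, 8 and 7 in that of HCC1428, was not tested in these 2 lines. In HCC1428 KRT14 went from 26, 24 and 26 to 38, 39 and 35 counts (log2 0.71 ± 0.29, adjusted p = 0.047), not called without any 1 siFOXA1_E2 library or siNT_E2 replicate 2 or 4 (adjusted p of 0.080 to 0.12). KRT5 stayed at no more than 0.0196 CPM in siFOXA1_E2 of each line. TP63 was higher in this group than in siNT_E2, at 15.2 against 0.573 CPM in MM330, 10.4 against 1.77 in HCC1428 and 2.02 against 0.754 in MM134, where it was at 3.01 CPM with siMDC1. The myoepithelial markers summed to 16.9 to 19.7 CPM with siFOXA1 against 17.9 to 20.7 in siNT_E2 of MM134, 19.6 to 25.1 against 15.4 to 15.6 in MM330, and 176 to 184 against 163 to 184 in HCC1428. Within these sums LAMA3 was lower with siFOXA1. It was at 5.59 against 13.3 CPM in MM330, 7.68 against 10.1 in MM134 and 97.7 against 109 in HCC1428. NGFR was higher in HCC1428, at 69.0 against 60.3 CPM, so the sums do not show a joint rise. The part of the myoepithelial markers in the siFOXA1 result was not tested.

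KRT13 rose by 2.72 ± 0.32 in MM330, from 1.99, 3.13 and 2.63 to 12.4, 17.2 and 20.6 CPM, and fell by 1.12 ± 0.07 in HCC1428, from 77.7 to 36.7 CPM. KRT4 fell by 2.13 ± 0.22 in MM330, to 4.25, 1.96 and 1.67 CPM, and by 2.34 ± 0.22 in HCC1428, to 0.816, 0.652 and 0.459 CPM. KRT15 rose by 0.47 ± 0.10 in MM330 and fell by 0.34 ± 0.06 in HCC1428. KRT80 rose by 0.34 ± 0.03 in MM134 and 0.57 ± 0.07 in MM330 and fell by 0.42 ± 0.04 in HCC1428. KRT23 fell by 0.79 ± 0.18 in MM134 and rose by 1.39 ± 0.35 in MM330. KRT10 fell by 0.22 ± 0.05 in MM134, its only call in 12 comparisons.

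Among hair shaft keratins, KRT86 rose by 1.89 ± 0.26 in MM134 and 1.17 ± 0.10 in HCC1428, and in MM330 it had 4, 8 and 5 counts in siNT_E2 and 20, 15 and 21 with siFOXA1. KRT32 in MM330 went from 1, 2 and 1 counts to 27, 31 and 34, while in HCC1428 it fell by 1.27 ± 0.16. KRT31 fell by 1.22 ± 0.21 in MM330 and 1.74 ± 0.45 in HCC1428, and KRT37 by 1.60 ± 0.18 and KRT33A by 1.73 ± 0.29 in HCC1428. In MM134 KRT37 had 8, 6 and 3 counts and KRT33A 5, 8 and 11. KRT83 fell by 1.87 ± 0.31 in HCC1428, and KRT81 rose by 1.40 ± 0.20 in MM134.

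After knockdown of MDC1, KRT8 was lower in all 3 lines, and no member was higher in all 3. In MM134 4 members rose and 6 fell (4 and 4 without KRT33A and KRT37), against 25.4% and 25% of all genes (50.3% together). In MM330 0 rose and 8 fell, against 10.4% and 10.4% (20.8%), and in HCC1428 2 rose and 6 fell, against 13.2% and 15.9% (29.1%). The median log2 change was -0.66 in MM134 (-0.52 without KRT9 and KRT14, which had no count in siMDC1_E2), -0.36 in MM330 and -0.11 in HCC1428, against -0.00, 0.00 and -0.01 over all genes. Without KRT33A and KRT37 instead, the MM134 median was -0.52 as well. In MM330, 4 or 5 members were called without any 1 siMDC1_E2 library or without siNT_E2 replicate 2 or 3, and in HCC1428 5 were called without siNT_E2 replicate 3.

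KRT8 fell by 0.52 ± 0.03 in MM134, to 2929, 2937 and 2993 CPM, and by 0.43 ± 0.05 in MM330, to 2599, 2585 and 2362 CPM. In HCC1428 it fell by 0.14 ± 0.04, to 5916, 5855 and 5909.5 CPM, and was not called without siNT_E2 replicate 3 (adjusted p = 0.069). KRT19 fell by 0.25 ± 0.03 in MM134 and 0.37 ± 0.04 in MM330, and its change was -0.07 ± 0.03 in HCC1428 (adjusted p = 0.14). KRT18 was called with changes of -0.18 ± 0.05 in MM330 and -0.11 ± 0.03 in HCC1428. The MM330 call ended without any 1 siMDC1_E2 library or siNT_E2 replicate 2 or 3 (adjusted p of 0.060 to 0.097). The HCC1428 call ended without any 1 siMDC1_E2 library or siNT_E2 replicate 3 or 4 (adjusted p of 0.053 to 0.093). KRT18 in MM134 changed by -0.06 ± 0.03 (adjusted p = 0.074), with an adjusted p of 0.029 under the RLE scaling of edgeR and 0.0093 with DESeq2. KRT7 rose by 0.37 ± 0.03 in MM134 and 0.25 ± 0.07 in HCC1428, the latter not called by DESeq2 (adjusted p = 0.051) or with no filter on low counts (adjusted p = 0.091). KRT80 rose by 0.29 ± 0.03 in MM134, to 157, 157 and 153 CPM, and fell by 0.27 ± 0.04 in HCC1428, to 149.99, 149 and 153 CPM. Its fall in MM330, 0.28 ± 0.07, was not called without siMDC1_E2 replicate 2 or siNT_E2 replicate 3 (adjusted p of 0.062 and 0.092).

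KRT13 fell by 1.33 ± 0.35 in MM330, to 26, 34 and 26 counts, and by 0.87 ± 0.07 in HCC1428, to 43.3 CPM. KRT15 fell by 0.66 ± 0.11 in MM134 and 0.68 ± 0.11 in MM330, and KRT23 by 0.70 ± 0.18 in MM134. KRT86 rose by 1.59 ± 0.26 in MM134 and 1.45 ± 0.10 in HCC1428, where it went to 11.3, 13.3 and 10.8 CPM, and KRT81 rose by 0.97 ± 0.20 in MM134. KRT37 fell by 0.71 ± 0.17 in HCC1428. In MM134 KRT37 had 2, 9 and 6 counts and KRT33A 1, 3 and 6. In MM330 the fall of KRT37 (1.02 ± 0.35, adjusted p = 0.049) ended without any 1 of the 6 libraries compared (adjusted p of 0.056 to 0.17). The fall of KRT31 there (0.67 ± 0.21) ended without any 1 siMDC1_E2 library or siNT_E2 replicate 2 (adjusted p of 0.070 to 0.14). KRT83 in HCC1428 (-0.76 ± 0.28, adjusted p = 0.050) was not called without any 1 of the 6 libraries (adjusted p of 0.055 to 0.15).

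The difference of each effect between lines was tested directly. For E2, the effect in MM134 minus that in HCC1428 was positive for 6 of 20 members and negative for 0, against 12.2% and 14.3% of all genes (26.5% together). For MM330 it was positive for 3 and negative for 2, against 11.8% and 16.5% (28.3%). For siER the counts were 1 and 4 in MM134, against 12.4% and 12.1% (24.5%), and 2 and 7 in MM330, against 13% and 12.3% (25.3%). For siMDC1 they were 1 and 5 in MM134, against 10.9% and 7.69% (18.6%), and 0 and 4 in MM330, against 7.48% and 6.28% (13.8%). For siFOXA1 9 were positive and 0 negative in MM134, against 16.8% and 13.7% of all genes (30.5%), and 11 positive and 0 negative in MM330, against 11.8% and 10.4% (22.2%). Without KRT9 and KRT16, which passed the filter of this fit only through siFOXA1_E2 of MM134, the MM134 count was 8. The positive siFOXA1 differences included KRT7, KRT8, KRT18 and KRT19 in both lines. For KRT8 the siFOXA1 effect was greater by 0.36 ± 0.08 in MM134 and 1.06 ± 0.08 in MM330, and for KRT18 by 0.60 ± 0.08 and 0.80 ± 0.08. Among these 11, KRT83 had 0 counts in the siNT_E2 libraries of MM330 and 3, 4 and 6 with siFOXA1, so its fitted difference is not given. The KRT13 difference in MM134 (1.29 ± 0.46) was lost without siFOXA1_E2 replicate 2 or 3 or siNT_E2 replicate 2 or 3 of MM134 (adjusted p of 0.055 to 0.13). The KRT23 difference in MM330 (2.06 ± 0.62) was lost without siFOXA1_E2 replicate 3 or siNT_E2 replicate 2 of HCC1428 (adjusted p of 0.063 and 0.15).

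For E2, KRT8 responded more strongly in MM134 than in HCC1428 (difference 0.50 ± 0.08) and less strongly in MM330 (-0.35 ± 0.08). KRT18 differed in MM330 by -0.61 ± 0.08 (adjusted p = 1.4e-08), and KRT15 by 0.71 ± 0.15 in MM134 and 1.24 ± 0.14 in MM330. KRT7 fell less in MM134, with a difference of 0.74 ± 0.07. For siER, the fall of KRT80 exceeded that in HCC1428 by 1.10 ± 0.08 for MM134 (adjusted p = 7.4e-14) and by 0.95 ± 0.09 for MM330 (adjusted p = 8.7e-12). The loss of ESR1 RNA was smaller in HCC1428, and its part in this difference was not tested. For siMDC1, KRT8 fell further in MM134 by 0.38 ± 0.08 and in MM330 by 0.30 ± 0.08, while the KRT15 effect was lower than that in HCC1428 (0.05 ± 0.06, adjusted p = 0.56) by 0.72 ± 0.15 in MM134 and 0.73 ± 0.14 in MM330. The count of 6 for siMDC1 in MM134 was 3 without siMDC1_E2 replicate 1 of MM134, where the differences of KRT33A, KRT37 and KRT19 were lost (adjusted p of 0.073, 0.070 and 0.073).

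Plakins and other proteins that link keratin filaments to junctions were followed as the filaments' partners. With siFOXA1, 8 of 12 tested members of this list of 15 rose and 3 fell in MM134, 10 of 14 rose and 3 fell in MM330, and 7 of 13 rose and 3 fell in HCC1428, where 27.9% and 28.5%, 24.4% and 24.6%, and 24.1% and 29.5% of all genes did. The median log2 change was 0.42, 0.34 and 0.19, against 0.01, -0.01 and -0.03 over all genes. EVPL, which encodes envoplakin, rose by 0.99 ± 0.04, 0.82 ± 0.06 and 0.67 ± 0.04, and PLEC, which encodes plectin, by 0.44 ± 0.05, 0.82 ± 0.03 and 0.63 ± 0.07. MACF1 fell by 1.11 ± 0.05, 0.39 ± 0.05 and 0.76 ± 0.05 in MM134, MM330 and HCC1428, and TCHP by 0.45 ± 0.06, 0.39 ± 0.08 and 0.31 ± 0.07. TCHH fell by 1.76 ± 0.50 in MM330 and 0.65 ± 0.14 in HCC1428. DSP, the desmoplakin gene, fell by 0.64 ± 0.04 in MM134 and rose by 0.31 ± 0.04 in MM330. After E2, 5 rose and 5 fell in MM134, 4 rose and 7 fell in MM330, and 4 rose and 6 fell in HCC1428, where 54.4%, 26.3% and 54.8% of all genes were called. With siER 4 rose and 5 fell, 3 rose and 4 fell, and 5 rose and 2 fell (57.2%, 32.5% and 51.2% of all genes called), and with siMDC1 8 rose and 3 fell, 3 rose and 2 fell, and 5 rose and 0 fell (50.3%, 20.8% and 29.1%).

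Of 14 intermediate filament genes that are not keratins, 7 were tested in each line. After E2, 4 rose in each line, and 2, 3 and 2 fell, where 54.4%, 26.3% and 54.8% of all genes were called. LMNB1, a nuclear lamin, rose by 2.67 ± 0.04 in HCC1428, from 21.1 to 137 CPM, while LMNA fell by 0.10 ± 0.03 there. With siER 4, 2 and 1 rose and 3, 2 and 4 fell (57.2%, 32.5% and 51.2% of all genes called), and with siMDC1 4, 3 and 1 rose and 0, 2 and 2 fell (50.3%, 20.8% and 29.1%). With siFOXA1 5, 2 and 1 rose and 2, 3 and 5 fell (56.3%, 49% and 53.6%). LMNA rose with siFOXA1 by 0.96 ± 0.03, 0.97 ± 0.04 and 0.23 ± 0.03. VIM, the filament of mesenchymal cells, was at 253 CPM in siNT_E2 of MM134 and 15.6 CPM in MM330, and it rose with siFOXA1 by 0.14 ± 0.03 and 0.75 ± 0.09.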

How the data were processed

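RNA of 3 cell lines was selected for poly(A), prepared with a stranded kit and read from both ends, 150 bases each, in 45 libraries, per the labels' protocols. STAR 2.6.0a, limma and GRCh38 appear in the submitters' processing notes. The sources used here name no counting tool, annotation or strand setting. The authors deposited raw counts for 57353 gene symbols, and all 45 columns were tied to their samples by name.

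All fits used edgeR 4.0.16 in R 4.3.3. For each line its 15 libraries entered a quasi-likelihood fit (glmQLFit, glmQLFTest) after filterByExpr by group and TMM scaling. Benjamini-Hochberg adjustment ran over all genes tested, and an adjusted p under 0.05 was a call. A second fit over the 45 libraries gave the differences between lines and the siNT levels. CPM levels use TMM over the 45 libraries, and the SE of a log2 change is its size divided by the square root of F. Gene models came from GENCODE release 29, which held all 55 keratin symbols. Scripts were tested on simulated data.

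The members and lists were chosen with earlier results of these data known. The text names called members with a log2 change of at least 1 in a comparison, KRT8, KRT18 and KRT19 always, and further members after their values were seen. Alternatives were RLE scaling, every gene with a count kept, a block for the replicate number, DESeq2 1.42.0, the compared libraries alone, the libraries with a lower pseudogene share alone, each library left out, and other membership thresholds. Same-numbered libraries deviated together with correlations between -0.47 and 0.51, and in no comparison with 3 pairs were all above 0.1, so the numbers were not taken to pair libraries. No molecular identifiers were counted, and no library appeared to be deposited more than once.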

Additional observations from a re-analysis of the deposited data

Results flagged for a closer look

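Differences of effects between lines that passed the test drew attention. Against HCC1428, 6 members differed in the E2 effect of MM134, 5 in its siER effect, 9 in its siFOXA1 effect and 6 in its siMDC1 effect. In MM330 these counts were 5, 9, 11 and 4. In 10 cases the change was called in both lines with opposite signs. The share of all genes with such opposite calls was not computed, so these cases are a list only. KRT80 was one in 5 of them, with differences of 0.43 (E2), 0.72 (siFOXA1) and 0.57 (siMDC1) for MM134 and of 0.64 (E2) and 0.96 (siFOXA1) for MM330. The others were all siFOXA1 effects. KRT19 differed by 0.32 in MM134 and 0.71 in MM330. In MM330, KRT13 differed by 3.83, KRT15 by 0.78 and KRT32 by 5.81, the last resting on 4 counts in the siNT_E2 libraries of MM330, where KRT32 passed the filter on low counts only through siFOXA1_E2, so that its call there is no evidence of a change. Groups of 3 libraries were not tested for single outlying libraries.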

How the results depend on the processing

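Of 135 calls of members within lines, those of members that passed the filter through 1 group included, 118 held under every alternative tried, 16 ended when at least 1 library was left out and 13 under at least 1 other alternative, and no call changed sign. Counts of called members moved by more than 1.5 times in 4 comparisons. For siMDC1 in MM330, 8 members were called, and 4 to 7 with a library left out. For siMDC1 in HCC1428, 8 were called, 5 with no filter on low counts, and 5 to 7 with a library left out. For the siER difference between MM134 and HCC1428, 5 were called, 8 by DESeq2 and 8 with the compared libraries alone. For the siMDC1 difference between these lines, 6 were called and 3 to 6 with a library left out. The cause of these moves was not tested. With a block for the replicate number, the called members were 13, 13, 13 and 10 in MM134 (E2, siER, siFOXA1, siMDC1), 9, 9, 12 and 7 in MM330 and 11, 11, 13 and 7 in HCC1428, where the unmatched replicate 4 of siNT_E2 then adds nothing. Under this block no count of calls moved by more than 1.5 times. At 0.5 CPM the membership rule takes 24 keratins, and at 2 CPM 16. Keratins with few counts in every group limit what the depth can show. KRT9, KRT14, KRT16 and KRT83, for example, rest on fewer than 100 counts per library. KRT33A was low too, with 866 counts over all 45 libraries and 1.90 CPM in its highest group.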
